A study of Rattus norvegicus with 2 samples.

Results

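Voltage-gated sodium and calcium channel subunits were described in the nucleus tractus solitarius (NTS) of female and male rats. The genes were taken by name: every rat probe of the array whose gene name begins with Scn followed by a number and a or b, or with Cacna, Cacnb or Cacng. The rule gave 40 genes of 26334 gene names on the array, with 52 probes in 88 spots. Of these, 38 genes had at least 1 probe well above background on both arrays, and these 38 are called counted genes below, among 21200 counted genes in all.

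The female sample was a pool of total RNA from 5 female Wistar Kyoto rats and the male sample a pool from 5 males, with 100 ng per rat. All rats were 9 weeks old, no drug or surgery is given for them, and 1 single-colour Agilent array, which reads RNA by its binding to spotted 60-base probes, was run for each pool. With 1 array a sex there are no replicates: no difference was tested, no p-value is given and the spread between rats was not measured. Wistar Kyoto is the normotensive strain commonly set beside the spontaneously hypertensive rat. The NTS was cut from a block of dorsal medulla over a stretch beginning 1.0 mm in front of the calamus scriptorius, a surface landmark, and ending 0.5 mm behind it, so neighbouring cells may be included.

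Voltage-gated sodium channels open on depolarisation and carry the rising phase of the action potential; each consists of a pore-forming alpha subunit and smaller beta subunits that tune gating and place the channel in the membrane. Voltage-gated calcium channels turn depolarisation into calcium entry, which triggers transmitter release, shapes bursting and reaches the nucleus. Their alpha1 subunit forms the pore, alpha2delta and beta subunits carry it to the membrane, and several gamma subunits are better known as partners of AMPA-type glutamate receptors. In the NTS these channels set how the neurons that receive baroreceptor and other visceral afferents fire and release transmitter.

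Each array had 42877 rat spots, of which 87.9% of the female array's and 85.5% of the male array's were well above background, with 0 saturated spots. The 75th percentile of the processed signal was 3380 for the female array, against 3441 for the male array. Differences below are female minus male on the log2 scale after each array was set relative to its 75th percentile, so equal raw signals give a slightly positive difference. The technical spread of a difference, called the spot SD, came from probes spotted 10 times. It was 0.31 for genes over 64-fold below the 75th percentile, 0.15 for those 16- to 64-fold below it, 0.089 for those 4- to 16-fold below it and 0.069 for brighter genes. All 10 genes on the array that mark dorsal medulla and NTS were well above background on both arrays, among them Dbh, the noradrenaline-making enzyme gene, with signals of 32900 in females, against 34745 in males. In pooled tissue, a larger number of cells and more RNA per cell cannot be told apart.

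The probes are 60 bases long, and 4 of them are shown because the comparisons turn on what a single probe reads. The first reads the sodium channel alpha subunit with the opposite sign to the rest, the second is the brighter probe of the calcium channel subunit with the clearest male excess, and the last pair are the probes of 1 gene that point opposite ways. Sequences are those of the array files, printed in lower case from 5′ to 3′ with no part marked. Positions are on the rat build rn4 and all 4 lie on the minus strand.
Scn3a, chr3:47421917-47421976: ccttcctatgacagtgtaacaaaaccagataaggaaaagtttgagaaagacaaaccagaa
Cacnb4, chr3:33936598-33936657: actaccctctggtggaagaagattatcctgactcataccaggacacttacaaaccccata
Cacna1a, chr19:25194788-25194847: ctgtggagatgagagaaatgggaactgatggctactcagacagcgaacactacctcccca
Cacna1a, chr19:25320530-25320589: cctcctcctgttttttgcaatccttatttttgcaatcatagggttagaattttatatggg

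Across all members the female and male pools differed little. Of the 38 counted genes 0 differed by 2-fold, against 0.679% of all counted genes (0.142% with a female and 0.538% with a male excess). Likewise 0 differed by 1.5-fold, against 2.87% of all counted genes (1.0% with a female and 1.87% with a male excess). The differences ran from -0.31 for Cacnb4 to 0.57 for Scn4a, with a median of 0.029, and the median over all genes was -0.013. Over 2 spot SDs separated the pools in 7 members, or 18.4%, near the 20.1% of all counted genes. Of the 7, 6 were higher in the female pool, or 15.8% of members against 7.29% of all genes, and 1 was higher in the male pool, or 2.63% against 12.8%. Those on the female side included Scn4b, Scn1a, Scn2a, Cacng2 and Cacna1i, and the one on the male side was Cacnb4. All 6 on the female side lie in the brightest class, which holds 15 members; 7.91% of the 9683 genes of this class had a female excess over 2 spot SDs and 14.6% a male excess. Cacnb4 lies in the class 4- to 16-fold below the 75th percentile, where these shares were 8.45% and 16.9%.

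**Figure D1:**
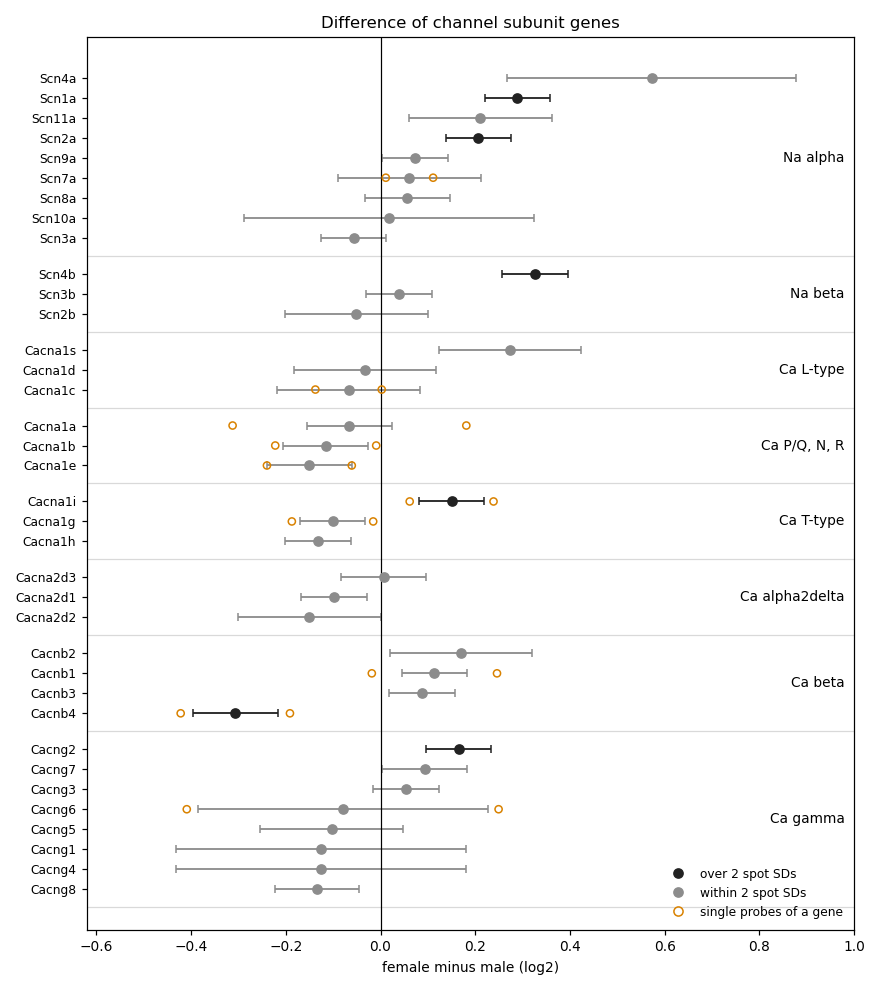
Female minus male difference on the log2 scale (x axis) for counted genes (y axis), grouped by subunit type. Filled points are gene values with bars of 1 spot SD, dark where the difference was over 2 spot SDs; open circles are the single probes of genes with several. Scn4b at 0.33 and Scn1a at 0.29 are dark points on the female side and Cacnb4 at -0.31 is the dark point on the male side; Scn4a at 0.57 is grey, with one of the widest bars.

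**Figure D2:**
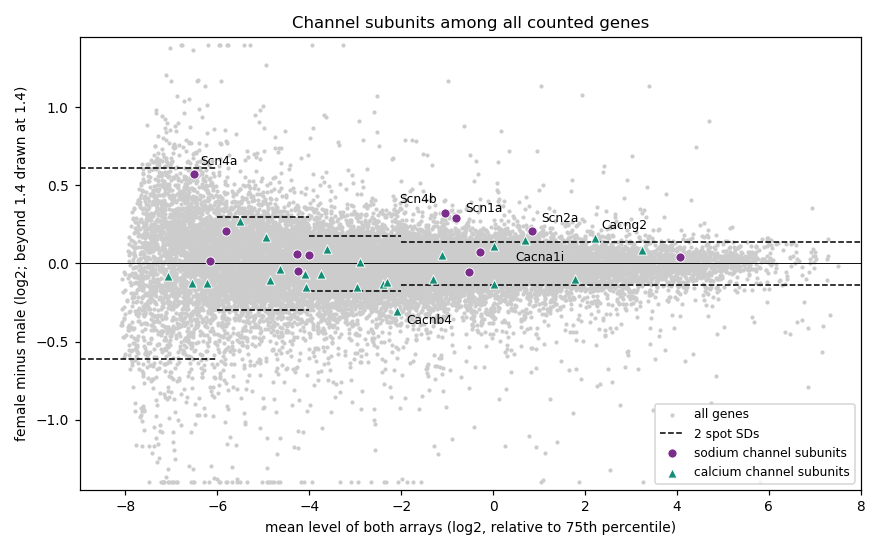
Difference between the pools (y axis, female minus male, log2) against the mean level of both arrays (x axis, log2 relative to the 75th percentile) for 21200 counted genes in grey, with sodium channel subunits as circles and calcium channel subunits as triangles. Dashed lines mark 2 spot SDs in each brightness class. Plotted members outside the lines are named, as is Scn4a, which lies inside them at 0.57.

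Relative to the 75th percentile, sodium channel subunits leaned to the female pool by small amounts. The calcium channel median lay slightly on the male side, a direction that turned with spike-in scaling and with bright probes alone. Of 14 counted sodium channel genes, 12 had the higher level in females and 2 in males; the median difference was 0.067. Of 24 counted calcium channel genes, 9 had the higher level in females and 15 in males; the median difference was -0.074. Over all genes 46.1% had the higher level in females and 53.9% in males. Over 2 spot SDs, 2 calcium channel genes had a female and 1 a male excess, against 7.29% and 12.8% of all genes. The difference between the families was not tested. With only probes brighter than the median probe, the calcium channel median was 0.0025 over 15 genes. With the brightest probe of each gene it was -0.012, with 11 genes higher in females and 13 in males, near the -0.0084 of all genes. The medians are relative to the 75th percentile: when the arrays were set level by the spike-in probes every gene moved by 0.67 towards the female pool, and both medians were then positive, at 0.74 and 0.60, on either side of the 0.66 of all genes.

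Among the pore-forming sodium channel subunits, 9 of 10 were higher in the female pool, against 46.1% of all genes, and 2 of them by over 2 spot SDs, against 7.29% of all genes. Scn1a encodes a channel known from fast-firing inhibitory neurons. Its probe gave a processed signal of 2138 in females, against 1781 in males. The difference was 0.29, or 1.22-fold, at 4.18 spot SDs. Scn2a, a channel of axons and their initial segments, had 6545 in females, against 5773 in males. The difference was 0.21, or 2.99 spot SDs. Each of these values rests on 1 spot per array.

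Scn4a had the largest difference of all members and belongs to the dimmest class. Its signal was 45.3 in females, against 31.0 in males, which is 0.57 or 1.49-fold, within 2 spot SDs of that class. With normexp background correction it was 0.23, over 2 spot SDs at the smaller spot SD of 0.093 that this correction gives, and without the outlying bands of array rows it was 0.57 at 2.13 spot SDs. The gene encodes the skeletal muscle channel. Of the 7 counted skeletal muscle markers 3 were higher in females, against 46.1% of all genes. Their median was -0.044, with a range from -0.97 to 0.30. At the ends of that range were Ckm, a dim muscle creatine kinase gene with 27.6 in females, against 55.2 in males, and Mb, the myoglobin gene, with 1291 in females, against 1066 in males. Scn11a, a channel of small sensory neurons, had 65.1 in females, against 57.2 in males, a difference of 0.21 within 2 spot SDs and of 0.013 with normexp. Scn10a, also known from peripheral sensory neurons, had 47.7 in females, against 48.0 in males, which differ by 0.019 after scaling and by -0.10 with normexp. Of 7 counted markers of peripheral sensory neurons, 1 was higher in females, against the same 46.1%, and the median was -0.051. The part of these markers in the channel values was not tested.

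The alpha subunits described next lay within 2 spot SDs. Scn9a, known from sensory and sympathetic neurons, had 2836 in females, against 2744 in males, a difference of 0.073. Scn8a, the main channel of mature nodes of Ranvier, had 216.0 in females, against 211 in males, a difference of 0.057. Scn3a, a channel known mostly from the developing brain, was the only alpha subunit below 0, with 2293 in females, against 2428 in males, or -0.057.

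Scn7a, a relative of these channels known as a sodium-level sensor of glia in the circumventricular organs, was read by a probe with 10 spots and another with 1. The 10 spots of the first ran from 409 to 460 with a median of 437 among female spots, and from 382 to 435 with a median of 412 among male spots. The female spot was brighter in 9 of 10 places, the 2 sets of spots overlapped, and the mean difference was 0.11 ± 0.074 (SD of 10 spots). The second probe had a log2 level relative to the 75th percentile of -5.49 in females, against -5.51 in males, a difference of 0.011, so the gene value was 0.061, within 2 spot SDs.

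Of the sodium channel beta subunits, 3 of 4 were higher in the female pool, against 46.1% of all genes. Scn4b, which encodes the subunit linked to resurgent sodium current in fast-firing neurons, was measured with 10 spots on each array. Its 10 spots ran from 1746 to 1929 with a median of 1833 among female spots, and from 1383 to 1859 with a median of 1465 among male spots. The female spot was brighter in 9 of 10 places, and 9 of the 10 male spots lay below every female spot. The mean difference was 0.33 ± 0.13 (SD of 10 spots), or 1.25-fold, and the median over spots was 0.35. Spots of 1 array share the same labelled RNA, so this spread is technical.

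Scn3b had 57370 in females, against 56832 in males, and differed by 0.039. Scn2b, with 175.0 in females, against 185 in males, was the other sodium channel gene below 0, at -0.051. Scn3b and Scn2b, which encode further beta subunits, were within 2 spot SDs.

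**Figure D3:**
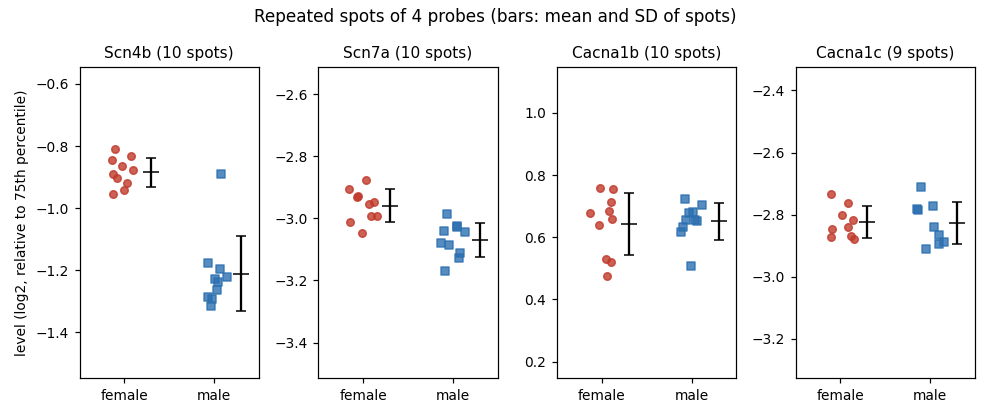
Level of each spot (y axis, log2 relative to the 75th percentile) for the 4 member probes spotted 10 times, with female spots left of male spots and bars for the mean and SD of the spots. Female Scn4b spots sit above 9 of the 10 male ones, Scn7a spots overlap with a shift of 0.11, and the Cacna1b and Cacna1c spots of the pools overlap; 1 flagged Cacna1c spot was left out.

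By the coordinates of the array files, 5 of the alpha subunit genes lie together on chromosome 3 within 1.21 Mb. From low to high position these are Scn3a at -0.057, Scn2a at 0.21, Scn1a at 0.29, Scn9a at 0.073 and Scn7a at 0.061. The 2 members beyond 2 spot SDs are neighbours there. On chromosome 8, Scn2b and Scn4b lie within 0.028 Mb of each other and differed by -0.051 and 0.33.

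With the reported processing, most calcium channel pores lay on the male side by small amounts. None of the 9 did so by over 2 spot SDs, against 12.8% of all genes. Cacna1h did so with normexp, at -0.20 and 2.66 spot SDs. Cacna1e did so without the outlying bands of array rows, at -0.24 and 2.69 spot SDs. Cacna1a lay on the female side with its brightest probe alone, at 0.18 and 2.03 spot SDs. With the brightest probe of each gene, Cacna1c at 0.0025, Cacna1i and Cacna1s lay on the female side too. The other pores then lay on the male side, among them Cacna1b at -0.0091. Of 9 counted alpha1 subunit genes, 7 were higher in the male pool, against 53.9% of all genes, with a median of -0.067. Of the 9, 1 was over 2 spot SDs, Cacna1i on the female side, against 7.29% of all genes. The presynaptic group, P/Q-, N- and R-type, had 3 of 3 genes on the male side, against the same 53.9%, each within 2 spot SDs with the reported processing. Cacna1a, the P/Q-type pore of fast transmitter release, had a gene value of -0.066 that hides a split between its probes. The first probe printed above gave 73.9 in females, against 93.4 in males, or -0.31, and the second gave 828 in females, against 743 in males, or 0.18. The probes lie 0.13 Mb apart, with a GC content of 51.7% and 35.0%. The direction for Cacna1a depends on the probe that is read.

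Cacna1b, the N-type pore, was read by 10 spots from 4695 to 5720 with a median of 5374 among female spots, and from 4894 to 5683 with a median of 5421 among male spots. The spots of the pools overlapped and the mean difference was -0.0091 ± 0.076 (SD of 10 spots). After scaling, the female level was higher in 7 of 10 places, and the median over spots was 0.0046. Its second, dimmer probe gave 81.8 in females, against 97.2 in males, or -0.22, which puts the gene value at -0.12. Cacna1e, the R-type pore, gave 239 in females, against 287 in males, at 1 probe, or -0.24. At the other it gave 702 in females, against 746 in males, or -0.061.

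Of the low-threshold T-type pores, which support rebound and burst firing, Cacna1i was the one higher in the female pool. Its 2 probes overlap, sharing 43 of their 60 bases on chromosome 7. One gave 7468 in females, against 6443 in males, a difference of 0.24, and the other 4426 in females, against 4317 in males, a difference of 0.062. The gene value was 0.15, at 2.17 spot SDs, and the overlapping probes were 0.18 apart. The probe with 0.24 lies in a band of array rows where many dim spots were brighter on the male array. Without such bands the gene value was 0.062, and it was then within 2 spot SDs, as it also was with outlier spots kept. Cacna1h had 3263 in females, against 3640 in males, or -0.13. Cacna1g gave 756 in females, against 877 in males, at its dimmer probe, or -0.19, and 2272 in females, against 2338 in males, at its brighter probe, or -0.015. Cacna1h and Cacna1g, which encode the other T-type pores, were within 2 spot SDs with the reported processing.

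The L-type pores, which couple activity to slower calcium signals, showed no member over 2 spot SDs with the reported processing. Cacna1c, the L-type pore of heart, smooth muscle and neurons, was read by 9 spots from 459 to 509 among female spots, and from 458 to 526 among male spots. After scaling, the female level was higher in 6 of 9 places. The mean difference of these spots was 0.0025 ± 0.080 (SD), and a second probe gave 79.2 in females, against 88.7 in males, or -0.14. Cacna1d, the L-type pore linked to pacemaking, had 135 in females, against 140.5 in males, or -0.033. The dim probe of Cacna1s, the skeletal muscle pore, gave 82.2 in females, against 69.3 in males, a difference of 0.27 at 1.81 spot SDs. With the deposited value table it was 0.28 at 2.39 spot SDs. Cacna1f, the pore of photoreceptors, did not stand well above background in either pool.

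Among the auxiliary calcium channel subunits, Cacnb4 had the clearest male excess of the family. This beta subunit is a partner of presynaptic channels, and its loss causes ataxia and seizures in the lethargic mouse. Both probes pointed the same way: the dimmer gave 191 in females, against 260.1 in males, or -0.42, and the brighter, printed above, gave 2705 in females, against 3144 in males, or -0.19. The gene value was -0.31, or 1.24-fold, at -3.44 spot SDs. With outlier spots kept, which widened the spot SD of its class to 0.17, it lay within 2 spot SDs. With spike-in scaling its value was 0.37, the lowest of all members.

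Of the 4 beta subunits, the other 3 were higher in the female pool, against 46.1% of all genes. These 3 lay within 2 spot SDs with the reported processing. Cacnb1 again depended on the probe, with 10398 in females, against 8926 in males, at one, or 0.25, and 1207 in females, against 1244 in males, at the other, or -0.018. Its value was 0.16 at 2.18 spot SDs with normexp, and 0.25 at 3.56 with its brightest probe alone. Cacnb3 had 33110 in females, against 31728 in males, a difference of 0.087. Cacnb2 had 117 in females, against 106 in males, a difference of 0.17. Beta subunits bind the pore inside the cell and protect it from degradation.

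The alpha2delta subunits, of which the first 2 are targets of gabapentin, differed little. Cacna2d1 had 11185 in females, against 12187 in males, or -0.098. Cacna2d2 had 191 in females, against 216 in males, or -0.15. Cacna2d3 had 456 in females, against 462 in males, or 0.0068 after scaling. All 3 lay within 2 spot SDs. Cacna2d4, known from the retina, did not stand well above background in either pool.

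Of the 8 gamma subunit genes 3 were higher in the female pool, against 46.1% of all genes. Cacng2, which encodes stargazin, the AMPA receptor partner missing in the stargazer mouse, had 16596 in females, against 15068 in males. The difference was 0.17, or 1.12-fold, at 2.39 spot SDs, on 1 spot per array, and it was within 2 spot SDs with outlier spots kept. The other AMPA receptor partners lay on both sides of 0 and within 2 spot SDs. On the female side, Cacng3 had 1598 in females, against 1566 in males, or 0.054, and Cacng7 had 284 in females, against 271 in males, or 0.093. On the male side, Cacng8 had 616 in females, against 688 in males, or -0.13. Cacng4 and Cacng5 lay there too, the first with 43.2 in females, against 48.0 in males, or -0.13, and the second with 112 in females, against 123 in males, or -0.10.

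The skeletal muscle subunit gene Cacng1 and Cacng6 were dim, and their probes disagreed. One probe of Cacng1 gave 34.6 in females, against 38.5 in males, or -0.13. Its other probe was well above background in the female pool only, at 20.6 in females, against 11.8 in males, which is at least 1.60-fold when the male signal is replaced by the lowest level counted as well above background there. With this other probe counted too, the gene value of Cacng1 was 0.35, within 2 spot SDs. The first probe of Cacng6 had a log2 level of -7.14 in females, against -7.38 in males, a difference of 0.25. The second had a log2 level of -7.11 in females, against -6.71 in males, a difference of -0.41, which is the widest gap between probes among members, at 0.66. On chromosome 10, Cacng1, Cacng4 and Cacng5 are neighbours. With the reported processing they were at -0.13, -0.13 and -0.10, each within 2 spot SDs. Scn4a, at 0.57, lies with them within 1.59 Mb. On chromosome 1, Cacng6, Cacng8 and Cacng7 lie within 0.062 Mb.

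**Figure D4:**
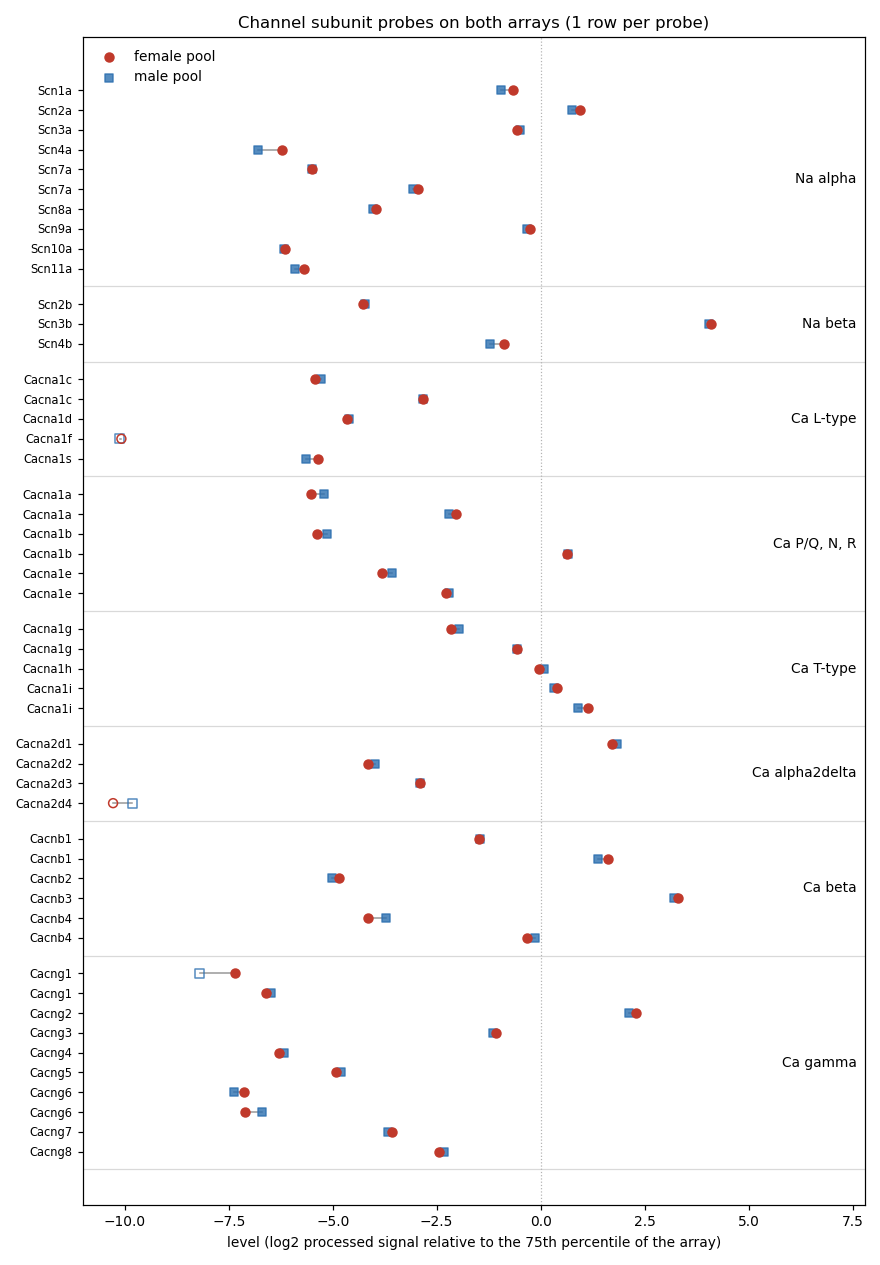
Level of member probes (1 row per probe, x axis in log2 relative to the 75th percentile of the array) in the female pool (circles) and the male pool (squares), grouped by subunit type. Open symbols were not well above background, as for Cacna1f, Cacna2d4 and 1 Cacng1 probe in the male pool. The symbols of both pools lie close to each other in nearly every row, and levels of different probes are not comparable.

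Several probes of a gene gave a check within the arrays. Of 11 members with several counted probes, 7 had all probes on the same side of 0, or 63.6% against 54.1% of the 2963 such genes on the array. The median gap between probes of a member was 0.18, against 0.14 over all such genes. The 4 split members were Cacna1a, Cacna1c, Cacnb1 and Cacng6.

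Genes whose products act with these channels were described beside them. Of 13 counted partners of sodium channels, 6 were higher in females, against 46.1% of all genes, with a median of -0.0041. Of the 13, 2 were over 2 spot SDs, both on the female side, against 7.29% of all genes. They were Cntnap1, which holds the paranodal junction beside the node of Ranvier, with 3152 in females, against 2751 in males, or 0.22, and Ank2, an ankyrin of the axon, with 6231 in females, against 5591 in males, or 0.18. The axon initial segment ankyrin Ank3 gave -0.076, and the fibroblast growth factor homologue Fgf11, which was dim, 0.52 within 2 spot SDs. The adhesion molecule Nrcam gave -0.12 over 4 probes.

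Of 24 counted partners of calcium channels, 12 were higher in females, against 46.1% of all genes, with a median of 0.019. Over 2 spot SDs, 1 had a female and 2 a male excess, against 7.29% and 12.8% of all genes. Bsn, a scaffold of the presynaptic active zone, was higher in the female pool by 0.20, over 2 spot SDs. The neuronal calcium sensor Hpcal4 had 1025 in females, against 1292 in males, or -0.31, over 2 spot SDs. Erc1, another active zone protein, had 73.5 in females, against 93.8 in males, or -0.33, also over 2 spot SDs. It was dim too, with a spot SD of 0.15, and rests on 1 spot per array. The small GTPases Rem1 and Gem, which restrain calcium channels, gave 0.42 and 0.35 but were dim and within 2 spot SDs.

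Marker genes of the cell types in the tissue also differed between the pools. Over all genes 46.1% had the higher level in the female pool. The neuron list had a median of -0.0037, with 6 of 12 genes higher in the female pool. Oligodendrocyte genes had a median of 0.13 with 8 of 10 higher in the female pool, their precursors 0.14 with 6 of 7, and endothelium 0.13 with 7 of 8. Blood cells had a median of -0.65 with 0 of 7, meninges and fibroblasts -0.40 with 0 of 8, choroid plexus -0.18 with 1 of 8, smooth muscle and pericytes -0.13 with 2 of 7, microglia -0.11 with 3 of 9 and astrocytes -0.070 with 3 of 10. Motor neuron genes had a median of -0.078, cerebellar genes -0.030 and dorsal medulla genes -0.041. Of 10 dorsal medulla genes, 4 were higher in females and 6 in males. Prlh was higher in the female pool by 0.62, with 22424 in females, against 14828 in males. Hoxb6 at 0.24 and Cartpt at -0.19 were, like Prlh, over 2 spot SDs. Of 7 photoreceptor genes 3 were counted, among them Sag at 0.10 and Rcvrn, the recoverin gene, at -1.48 with 71.8 in females, against 203.7 in males. The part of these lists in the channel values was not tested.

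**Figure D5:**
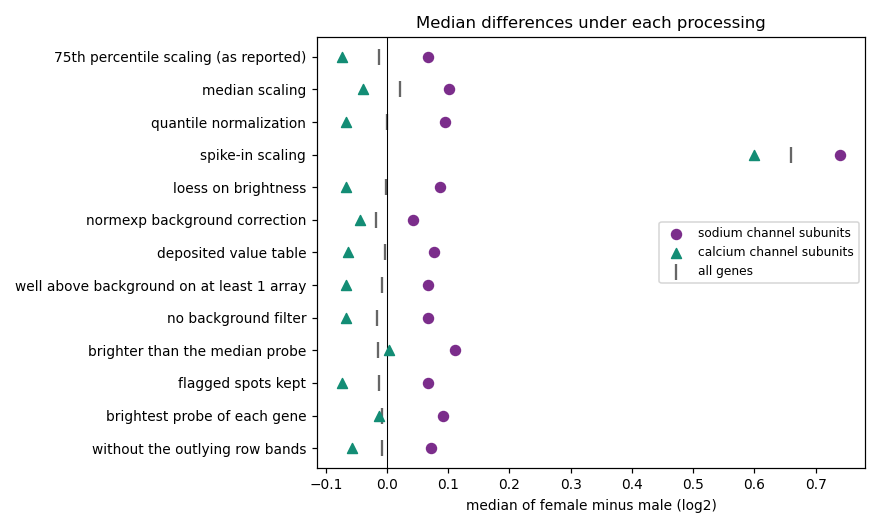
Median female minus male difference (x axis, log2) of sodium channel genes (circles), calcium channel genes (triangles) and all genes (bars) under the reported processing and 12 alternatives (y axis). The sodium channel median lies above that of all genes in every row, and the calcium channel median lies below it except with probes brighter than the median, where it is 0.0025 against -0.015.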

How the data were processed

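RNA of each pool (150 ng) was labelled with Cy3, per the labels' protocols, from tissue RNA with an integrity number above 7. The deposited intensity values are processed signals of single-colour Agilent arrays, background-subtracted and detrended within each array, per the file headers, by Feature Extraction 10.7.3.1; the submitters' processing notes name version 9.1. Both arrays lay on 1 slide. In the deposited value table each column equals the processed intensity times 1 factor per array; its column medians were 27.3 (female) and 28.0 (male), so the scale is linear and not centred.

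Log2 signals were set relative to the 75th percentile, 430 spots flagged as outliers were omitted, spots of a probe were averaged, and a gene took the median of its probes well above background on both arrays. Spot SDs came from probes with at least 5 unflagged spots. Background correction with normexp used limma 3.58.1; the rest used Python 3.11.15. The step from probe values to gene counts was tested on simulated probe values, with noise drawn from the same spot SDs. Scaling, outlier flags and the averaging of spots were not simulated. Of the 52 member probes, 48 had an accession in the GRCr8 reference table, and all 48 kept their name. Members, lists and alternatives were chosen with earlier results of these data known. Members at 1.5-fold or more, repeated-spot members over 2 spot SDs, the 2 largest differences of each subunit type and up to 4 partners per list were to be named, and 2 members that enter the counts and medians are not reported here or drawn. Alternatives are given in the closing section. The number of arrays limits the precision.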

Additional observations from a re-analysis of the deposited data

How the results depend on the processing

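Of the 12 alternatives, 4 changed how the arrays were scaled (median, quantiles, spike-in probes, loess on brightness), 3 changed which dim probes counted, and the others used normexp, the deposited value table, the outlier spots, only a gene's brightest probe, or omitted 5 of 20 bands of array rows with many dim spots brighter on the male array. Apart from spike-in scaling, all 7 members over 2 spot SDs had a value in each of the 11 others and kept their sign there. Over all 38 members, which had a value in 9 to 11 of them, 32 kept their sign wherever they had one; 22 had a value in all 11, and 19 of these kept their sign. Spike-in scaling turned Cacnb4 to 0.37 and moved every gene: 1 member was then 2-fold different (4.34% of all genes were), 27 members were 1.5-fold different (70.1% of all genes), 35 lay over 2 spot SDs (93.4% of all genes), and the medians were 0.70 for all members, 0.74 for sodium channel genes, 0.60 for calcium channel genes, 0.67 for sodium channel partners and 0.69 for calcium channel partners. Median scaling put 1 member, Scn4a at 0.61, at 1.5-fold. With normexp 10 members lay over 2 spot SDs, 8 on the female side and 2 on the male side, against 19.1% of all genes. Scn4a, Cacnb1 and Cacna1h were added there, Cacna1s with the deposited value table, and Scn4a and Cacna1e without the 5 bands. Cacna1a and Cacnb1 were added with a gene's brightest probe, and Cacna1a also with probes brighter than the median. With outlier spots kept, which also enter the spot SDs, 3 members lay over 2 spot SDs, Scn4b, Scn1a and Scn2a, against 9.81% of all genes; Cacnb4, Cacng2 and Cacna1i then lay within 2. Without the 5 bands Cacna1i was 0.062, within 2 spot SDs. No paired analysis was possible because each sex has 1 array. Dim probes limit Scn4a, Scn10a, Cacng1, Cacng4 and Cacng6, whose spot SD is 0.31. Single-spot probes of 9 members lie in the 5 bands. Among them are Cacna1i, Scn9a, Scn10a and Scn11a on the female side, and Cacna1e, Cacna2d1, Cacng1 and Cacng5 on the male side. Without the bands Scn9a, Scn10a, Scn11a, Cacna2d1, Cacng1 and Cacng5 had no value.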
